A study of Mus musculus with 8 samples.

Results

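Surfactant is the film of lipid and protein that lowers surface tension in the alveoli, and alveolar type 2 cells make it. Its hydrophobic proteins SP-B and SP-C spread the lipid film, whereas SP-A and SP-D are collectins, soluble lectins that bind microbes. Lipid and hydrophobic protein are packed into lamellar bodies, lysosome-related organelles that the cell secretes. Club cells of the airway also make SP-A, SP-B and SP-D, whereas SP-C is a marker of type 2 cells in the adult lung. The 10 genes of this system described here were chosen by symbol and followed across 8 lung libraries. They are Sftpc, Sftpb, Sftpa1 and Sftpd for the surfactant proteins, Abca3 and Lamp3 for the lamellar body membrane, Lpcat1 for lipid synthesis, Napsa for protein processing, and Slc34a2 and S100g as further type 2 genes. All 10 were present among the 22244 genes of the count table, and all 10 passed the filter on low counts, as did 14192 genes in all.

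The libraries came from total RNA of the right cranial lobe of the lung. The mice were adult wildtype males of the inbred strain C57BL/6J, 4 of them injected with naphthalene and 4 of them controls labelled as having no treatment, with 1 library per mouse. Club cells convert naphthalene, a hydrocarbon of fused aromatic rings, to toxic products, and it is used to injure the airway epithelium. No dose, vehicle or interval before sampling is given in the sources used here, so effects of the injection and of naphthalene cannot be told apart. Reads assigned to genes numbered 11233709 to 16792306 per naphthalene library and 10743842 to 13518183 per control library, and the members had 412 to 97445 counts each. Levels are given as CPM, a gene's counts relative to library size after TMM scaling. In whole lobes, fewer cells of a type and less RNA per cell cannot be told apart. Genes that RefSeq places on chromosome 1 were at 0 in nearly all cases, and 8 of the 174 genes in the lists used below are affected. None of the 10 members lies on that chromosome.

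Promoters are shown for those members with a RefSeq entry whose levels deviated most strongly with or against Sftpc between libraries, as described below. That choice used values before the correction for transcript length and GC content, also described below. In corrected values, Pearson's r of Sftpc was 0.94 with Lpcat1, which is not shown, and 0.01 with Abca3. Sequences are from RefSeq on GRCm38.p6, another build than the mm39 named for the counts, and run from 250 bases before to 50 bases after the annotated start, 5′ to 3′ on the gene's strand. RefSeq entries were matched for 7 of the 10 members, all but Sftpc, Sftpd and Napsa. Capitals mark CTCAAG or its reverse complement CTTGAG, a core of the motif bound by NKX2-1, the lung epithelial transcription factor that activates surfactant genes. Sftpb and Abca3 lie at chr6:72304360-72304659 (plus strand) and chr17:24351773-24352072 (plus strand). Sftpa1, Lamp3 and S100g lie at chr14:41131538-41131837 (plus strand), chr16:19706316-19706615 (minus strand) and chrX:162964550-162964849 (minus strand).
Sftpb: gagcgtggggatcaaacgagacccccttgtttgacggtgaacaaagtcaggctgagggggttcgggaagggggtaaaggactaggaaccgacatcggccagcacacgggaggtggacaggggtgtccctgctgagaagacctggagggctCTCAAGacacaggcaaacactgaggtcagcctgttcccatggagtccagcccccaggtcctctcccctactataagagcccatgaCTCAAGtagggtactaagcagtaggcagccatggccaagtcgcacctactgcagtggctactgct
Abca3: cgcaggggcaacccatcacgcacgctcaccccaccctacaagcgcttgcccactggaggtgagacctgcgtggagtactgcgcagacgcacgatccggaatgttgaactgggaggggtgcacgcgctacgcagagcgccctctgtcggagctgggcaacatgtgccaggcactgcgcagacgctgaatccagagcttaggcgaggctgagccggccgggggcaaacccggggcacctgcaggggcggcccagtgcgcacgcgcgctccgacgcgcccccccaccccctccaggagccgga
Sftpa1: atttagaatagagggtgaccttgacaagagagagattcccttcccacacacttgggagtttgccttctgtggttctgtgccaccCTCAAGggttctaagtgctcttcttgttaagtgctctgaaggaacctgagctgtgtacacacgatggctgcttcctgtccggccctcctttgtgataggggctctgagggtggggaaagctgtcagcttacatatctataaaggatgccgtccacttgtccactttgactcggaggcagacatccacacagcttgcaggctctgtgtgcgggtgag
Lamp3: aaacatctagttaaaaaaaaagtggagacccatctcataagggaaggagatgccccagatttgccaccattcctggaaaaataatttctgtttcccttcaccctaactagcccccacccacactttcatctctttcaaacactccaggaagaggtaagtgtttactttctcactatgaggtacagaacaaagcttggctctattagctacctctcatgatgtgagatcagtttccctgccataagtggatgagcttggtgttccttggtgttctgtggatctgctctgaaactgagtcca
S100g: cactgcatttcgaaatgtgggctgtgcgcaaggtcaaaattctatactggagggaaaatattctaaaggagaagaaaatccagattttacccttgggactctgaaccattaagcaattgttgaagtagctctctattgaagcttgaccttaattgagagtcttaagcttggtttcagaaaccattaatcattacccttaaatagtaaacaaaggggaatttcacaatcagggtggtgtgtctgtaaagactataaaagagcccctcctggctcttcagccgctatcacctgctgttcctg
The motif was present in 2 of the 7 member promoters. Sftpb had 2 matches, starting 100 and 15 bases before the start site, and Sftpa1 had 1 match, 166 bases before it. The motif was found on either strand in 15.9% of all 32851 RefSeq promoters of that length. A motif of the C/EBP transcription factors, TTGCNNAA on either strand, was searched as well and is not marked. It was present in 2 of the 7 member promoters, those of Slc34a2 and S100g, and in 10.8% of all RefSeq promoters.

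The comparison asked whether the surfactant system differs between naphthalene-injected and control lungs. Sftpd, Napsa, Slc34a2 and Sftpb rose, by 1.27 to 1.73-fold, and no member fell. The other 6 members, Sftpc among them, did not pass the test (edgeR's quasi-likelihood test, Benjamini-Hochberg adjusted p below 0.05). So 4 of 10 members were called, all higher, against 28.7% of all tested genes called in either direction and 14.1% called higher. The median log2 fold change over the members was 0.30, against 0.01 over all tested genes. These 4 were also the members whose naphthalene and control values did not overlap, as was the case for 28.6% of tested genes, 13.9% with all naphthalene values above. Members number 10, so the count is a description and not a test of the group.

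**Figure D1:**
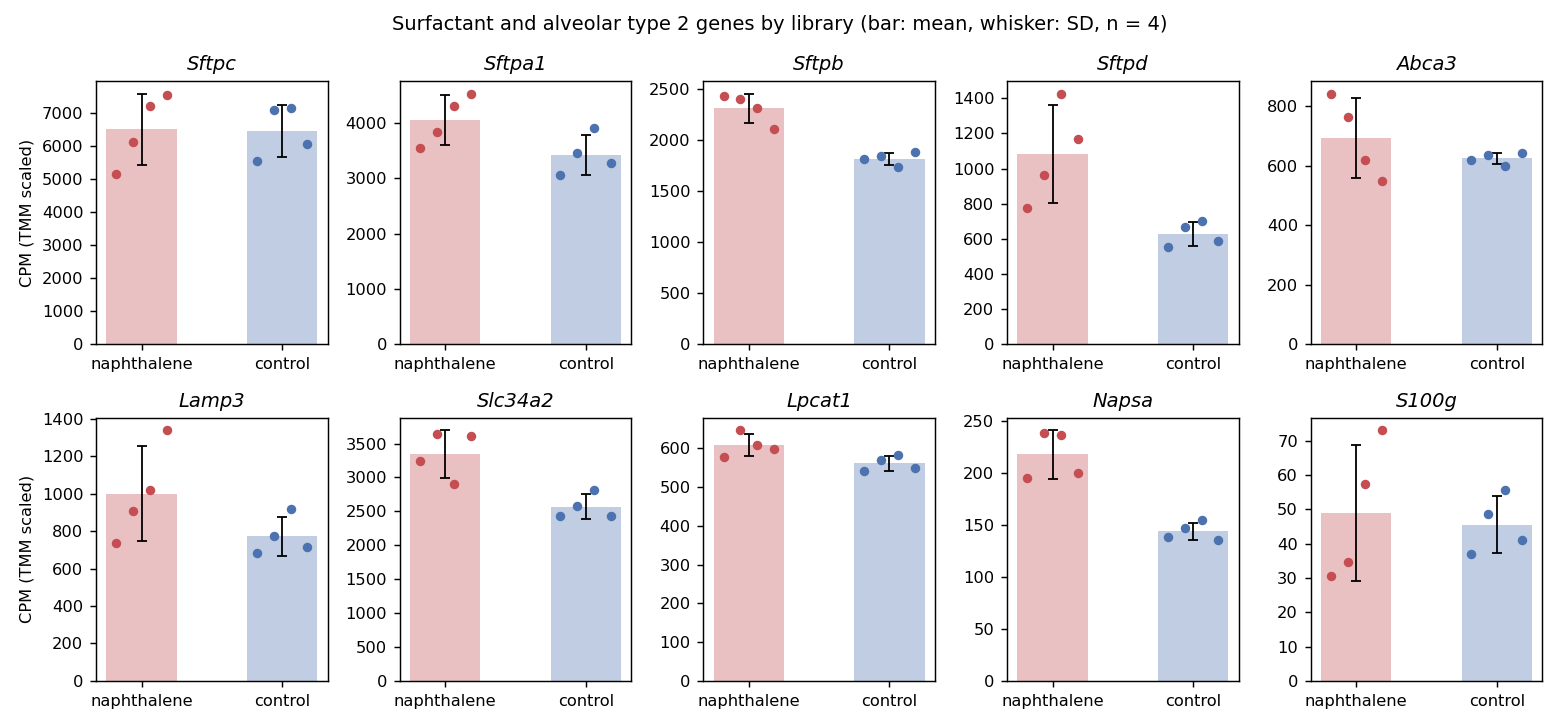
CPM of each member in naphthalene libraries (left, red) and control libraries (right, blue), with points for the 4 mice in replicate order, bars for the mean and whiskers for the SD. The naphthalene points lie above all control points for Sftpb, Sftpd, Slc34a2 and Napsa, while those of Sftpc, from 5162 to 7538 CPM, span the control range.

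Among the surfactant proteins, Sftpd, which encodes the collectin SP-D, showed the largest fold change of the 10. It stood at 777, 965, 1427 and 1169 CPM in naphthalene libraries 1 to 4, and at 554, 667, 704 and 587 CPM in controls 1 to 4. Every naphthalene library exceeded every control, and the naphthalene libraries were spread more widely. On the log2 scale the change was 0.79 (SE 0.20, edgeR adjusted p = 0.00607), with means of 1085 ± 279 and 628 ± 69.2 CPM in naphthalene and control lungs (SD, n = 4 each).

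Sftpb encodes SP-B, the hydrophobic protein without which lamellar bodies do not form. It stood at 2426, 2398, 2311 and 2109 CPM in naphthalene libraries and at 1811, 1840.3, 1739.7 and 1877 CPM in controls. The groups did not overlap, with means of 2311 ± 143 and 1817 ± 58.2 CPM in naphthalene and control lungs (SD, n = 4 each). The log2 fold change was 0.35 (SE 0.05, edgeR adjusted p = 0.0238). The call was lost without naphthalene 2 (adjusted p = 0.0758), control 1 (0.0688) or control 2 (0.0686), and when control 3 and naphthalene 1 were left out together (0.0506), with the log2 fold change between 0.30 and 0.35 in these 4 cases.

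Sftpa1, which encodes the collectin SP-A, stood at 3542, 3845, 4306 and 4532 CPM in naphthalene libraries and at 3053, 3464, 3901 and 3276 CPM in controls. The groups overlapped through control 3, which exceeded naphthalene 1 and 2. The log2 fold change of 0.24 (SE 0.11) did not pass (edgeR adjusted p = 0.176, limma 95% interval -0.01 to 0.50). It passed once control 3 and naphthalene 1 were dropped (0.37, adjusted p = 0.0362). Those were the highest control and the lowest naphthalene library for Sftpa1, so dropping both had to widen the difference.

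Sftpc, which encodes SP-C, stood at 5162, 6111, 7196 and 7538 CPM in naphthalene libraries and at 5557, 7071, 7135 and 6045 CPM in controls. Naphthalene libraries held both the lowest and the highest of the 8 values. The log2 fold change was 0.01 (SE 0.15, edgeR adjusted p = 0.965), and the limma 95% interval of -0.30 to 0.32 leaves room for a change of either sign.

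Of the lamellar body membrane genes, neither passed. Abca3, the transporter that loads lipid into lamellar bodies, stood at 843, 765, 620.1 and 549 CPM in naphthalene libraries and at 619, 636, 601 and 643 CPM in controls. Naphthalene 1 and 2 were above all controls and naphthalene 4 was below all of them, while the controls lay close together. The means were 694 ± 134 and 625 ± 19.0 CPM in naphthalene and control lungs (SD, n = 4 each), with a log2 fold change of 0.15 (SE 0.14, edgeR adjusted p = 0.418, limma 95% interval -0.16 to 0.41). That value was 0.046 without naphthalene 1 and 0.25 without naphthalene 4. Lamp3, a lysosome-associated membrane protein of lamellar bodies that mature dendritic cells also make, stood at 737, 906, 1018 and 1338 CPM in naphthalene libraries and at 683, 776, 916 and 713 CPM in controls. Its order across naphthalene libraries was the reverse of that of Abca3. The log2 fold change of 0.37 (SE 0.20) did not pass (edgeR adjusted p = 0.127). It did without naphthalene 1 (0.50, adjusted p = 0.0244) and after dropping control 3 as well as naphthalene 1 (0.59, adjusted p = 0.00997). Those were the highest control and the lowest naphthalene library for Lamp3, so dropping them had to widen the difference. Of 7 tested mature dendritic cell markers 2 rose, the chemokine genes Ccl17 (11.5 ± 5.02 and 3.01 ± 1.07 CPM in naphthalene and control lungs) and Ccl22. Their defining receptor gene Ccr7, chosen after its values were seen, was at 6.66 ± 3.58 and 12.4 ± 0.973 CPM (edgeR adjusted p = 0.0558, limma adjusted p = 0.0265). The call of Ccl22 (edgeR adjusted p = 0.0400) was lost without naphthalene 1 or 4 or any 1 control (0.0556 to 0.103), with control 3 and naphthalene 1 both left out (0.0993), with a replicate block (0.0705) and in limma voom (0.0517). The summed level of all 8 markers was 256 to 315 CPM in naphthalene libraries and 224 to 242 CPM in controls. Socs2, which did not pass (edgeR adjusted p = 0.180), made up 150 to 238 CPM of it in naphthalene libraries and 151 to 186 CPM in controls. Without Socs2 the sums overlapped, at 73.0 to 106 CPM in naphthalene libraries and 56.1 to 78.2 CPM in controls. The part of dendritic cells in the level of Lamp3 was not tested.

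Among the enzymes, Napsa, an aspartic protease that cleaves the SP-B precursor, had the smallest p of the 10. It stood at 195, 238, 237 and 200.1 CPM in naphthalene libraries and at 138, 147, 154 and 136 CPM in controls. All naphthalene values lay above all control values. Its log2 fold change was 0.60 (SE 0.09, edgeR adjusted p = 0.00112). Lpcat1, the acyltransferase that remodels phosphatidylcholine into its main surfactant form, stood at 578, 646, 608 and 598 CPM in naphthalene libraries and at 542, 569, 583 and 549 CPM in controls. The groups overlapped slightly, and the log2 fold change of 0.12 (SE 0.04) did not pass (edgeR adjusted p = 0.342, limma 95% interval -0.07 to 0.30).

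Slc34a2, a sodium-phosphate cotransporter of the type 2 cell surface, stood at 3237, 3637, 2896 and 3609 CPM in naphthalene libraries and at 2433, 2583, 2819 and 2433 CPM in controls. The groups did not overlap, with naphthalene 3 and control 3 close to each other. This was a log2 fold change of 0.38 (SE 0.09, edgeR adjusted p = 0.0321). The call was lost without naphthalene 2 (adjusted p = 0.102), naphthalene 4 (0.0517), control 1 (0.0986), control 2 (0.0808) or control 4 (0.0807), with log2 fold changes of 0.34 to 0.38 in these 5 cases. Without naphthalene 2, control 1 or control 2 the members past the test numbered 2, namely Sftpd and Napsa. S100g, which encodes the calcium-binding protein calbindin-D9k, stood at 30.7, 34.6, 57.3 and 73.1 CPM in naphthalene libraries and at 36.9, 48.5, 55.8 and 41.0 CPM in controls. It varied most of the 10 within the naphthalene group, and its log2 fold change of 0.10 (SE 0.32, edgeR adjusted p = 0.806) had a limma 95% interval of -0.54 to 0.55. S100g overlaps Ctps2 on the opposite strand in GENCODE M21, and the strand setting of the counting is not given in the sources used here, so its level is uncertain. The same doubt holds for Abca3, Slc34a2 and Napsa. They also overlap opposite-strand genes in GENCODE M21, though unlike Ctps2 none of those is among the genes counted.

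**Figure D2:**
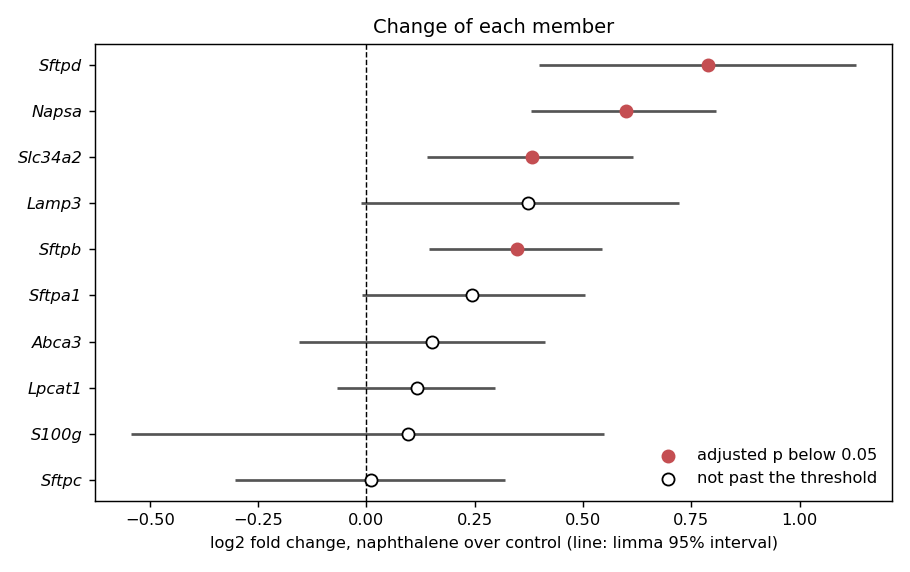
Log2 fold change of each member, naphthalene over control, from edgeR (points) with limma 95% intervals (lines), filled where the edgeR adjusted p was below 0.05. All 10 estimates lie above 0, from 0.01 for Sftpc to 0.79 for Sftpd, and 4 are filled.

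Relative to Sftpc in the same library, several members stood higher after naphthalene. The ratio of Sftpd to Sftpc counts was 0.151 to 0.198 in naphthalene libraries and 0.0943 to 0.0997 in controls. The ratio of Sftpa1 to Sftpc was 0.598 to 0.686 in naphthalene libraries and 0.490 to 0.549 in controls, although Sftpa1 alone did not pass. The ratios of Lamp3 (0.141 to 0.178 and 0.110 to 0.128) and Napsa (0.0265 to 0.0390 and 0.0207 to 0.0249) to Sftpc likewise did not overlap between naphthalene and control libraries. For Sftpb, Abca3, Slc34a2, Lpcat1 and S100g the ratios overlapped. Sftpc made up 29.4%, 31.3%, 34.8% and 34.7% of the members' counts in naphthalene libraries and 36.0%, 39.7%, 38.3% and 37.1% in controls, without overlap. Together the members took 1.75% to 2.11% of all counts in naphthalene libraries and 1.60% to 1.82% in controls, where naphthalene 1 lay below control 2 and control 3. These ratios are a description and were not tested. The share of all tested genes whose ratios to Sftpc do not overlap between the groups was not counted. These ratios are therefore not read as particular to the members. Sftpd and Napsa did not overlap between the groups in CPM alone either.

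**Figure D3:**
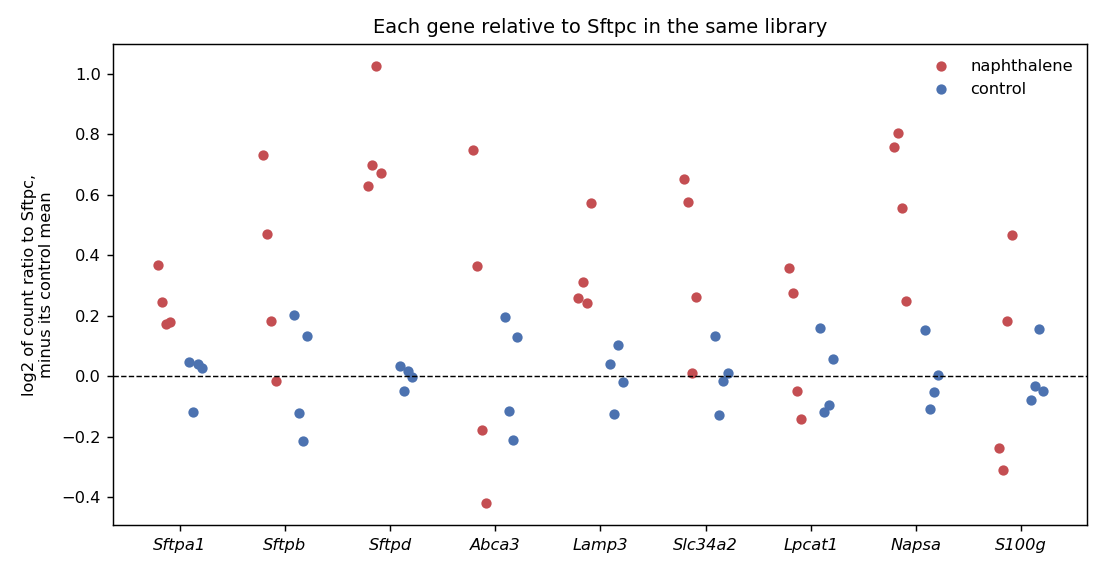
Log2 of each member's count ratio to Sftpc in the same library, minus the mean of the controls, for naphthalene (red, left) and control (blue, right) libraries, with 1 point per mouse. The naphthalene points of Sftpa1, Sftpd, Lamp3 and Napsa lie above all their control points, and those of Abca3 and S100g fall on either side of 0.

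Per kilobase of the longest coding transcript in GENCODE M21, Sftpc stood highest of the 10 in every library, at 8209 ± 1364 CPM per kb in naphthalene lungs and 8146 ± 983 CPM per kb in control lungs (SD, n = 4 each). Sftpb (1551 ± 96.2 and 1220 ± 39.1 CPM per kb in naphthalene and control lungs) and Sftpa1 (1421 ± 156 and 1199 ± 126 CPM per kb) followed, with overlapping ranges in either group. Slc34a2 (801 ± 83.9 and 615 ± 43.7 CPM per kb) and Sftpd (851 ± 219 and 492 ± 54.3 CPM per kb) came next, overlapping in naphthalene lungs and not in controls. Lamp3 and Lpcat1 were lower, at 298 ± 75.5 and 165 ± 7.79 CPM per kb in naphthalene lungs and 230 ± 30.9 and 153 ± 5.14 CPM per kb in controls. Abca3, S100g and Napsa stood lowest, at 102 to 139 CPM per kb in naphthalene lungs and 92.1 to 96.5 CPM per kb in controls, and neighbours in that order overlapped.

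Between mice of the same group, before the correction for length and GC content given below, the members fell into sets that deviated together. Sftpc, Sftpa1, Sftpd, Lamp3 and S100g deviated from their group means in the same direction, with Pearson's r of log2 CPM deviations between 0.75 and 0.95 over their 10 pairs and 8 libraries. All 5 were lowest in naphthalene 1 among naphthalene libraries and in control 1 among controls, where S100g stood 0.58 and 0.28 below its group mean on the log2 scale. Sftpb and Abca3 deviated together (r = 0.88) and in opposition to those 5, with r between -0.93 and -0.56 over 10 pairs. Abca3 was 0.30 above its group mean in naphthalene 1 and 0.32 below it in naphthalene 4 (log2 CPM). Lpcat1 and Napsa formed a further pair (r = 0.87). These sets were chosen after their values were seen, the points share a library, and no test was made.

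A library-wide measure moved with these sets. The mean deviation of GC-rich genes (transcripts with at least 55.1% G and C) minus that of GC-poor genes (at most 45.5%) was 0.40, 0.16, -0.16 and -0.40 in naphthalene libraries 1 to 4 and 0.16, 0.04, -0.33 and 0.12 in controls 1 to 4 (log2 CPM). The share of counts from mitochondrial genes was 0.522%, 0.640%, 0.857% and 0.922% in naphthalene libraries and 0.654%, 0.769%, 0.892% and 0.822% in controls. The summed level of the 11 alveolar macrophage markers, cells that clear surfactant, was 563, 744, 1223 and 1377 CPM in naphthalene libraries and 545, 781, 974 and 795 CPM in controls. Chil3 and Mrc1 made up 415 to 1165 CPM of this sum in naphthalene libraries and 354 to 725 CPM in controls, and Marco was among the chromosome 1 genes at 0. The other 9 markers summed to 148 to 212 CPM in naphthalene libraries and 190 to 248.7 CPM in controls. Transcript GC content was 54.8% for Sftpc, 54.0% for Sftpd, 47.1% for S100g, 44.0% for Sftpa1 and 38.7% for Lamp3. It was 54.8% for Abca3, the same as for Sftpc, and 58.1% for Sftpb. Transcript length was 792 bases for Sftpc and 6476 bases for Abca3. The mean deviation of long minus short transcripts (upper and lower quartiles of length) was 0.082, 0.015, -0.045 and -0.052 in naphthalene libraries 1 to 4. In controls 1 to 4 it was 0.042, -0.028, 0.016 and -0.030 (log2 CPM). The part of these measures in the members' deviations was not tested. Each library was then corrected for transcript length and GC content, a step added after seeing the data. After it, r was 0.37 for Sftpb with Abca3, against 0.88 before, and 0.89 for Lpcat1 with Napsa, against 0.87. The highest r were then 0.94 for Sftpc with Lpcat1 and 0.93 for Sftpb with Napsa. The 10 pairs among Sftpc, Sftpa1, Sftpd, Lamp3 and S100g had r between 0.44 and 0.91, against 0.75 to 0.95 before. In the corrected values, 8 of the 10 pairs between those 5 and Sftpb or Abca3 were positive (r between -0.43 and 0.84), and 43 of all 45 pairs were positive, against 29 without correction. With the same correction Abca3 (log2 fold change 0.26, edgeR adjusted p = 0.0214) and Lamp3 (0.36, adjusted p = 0.0038) passed as well, so that 6 of the 10 members were called higher, while the share of all tested genes called higher was 23.5% under that correction.

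**Figure D4:**
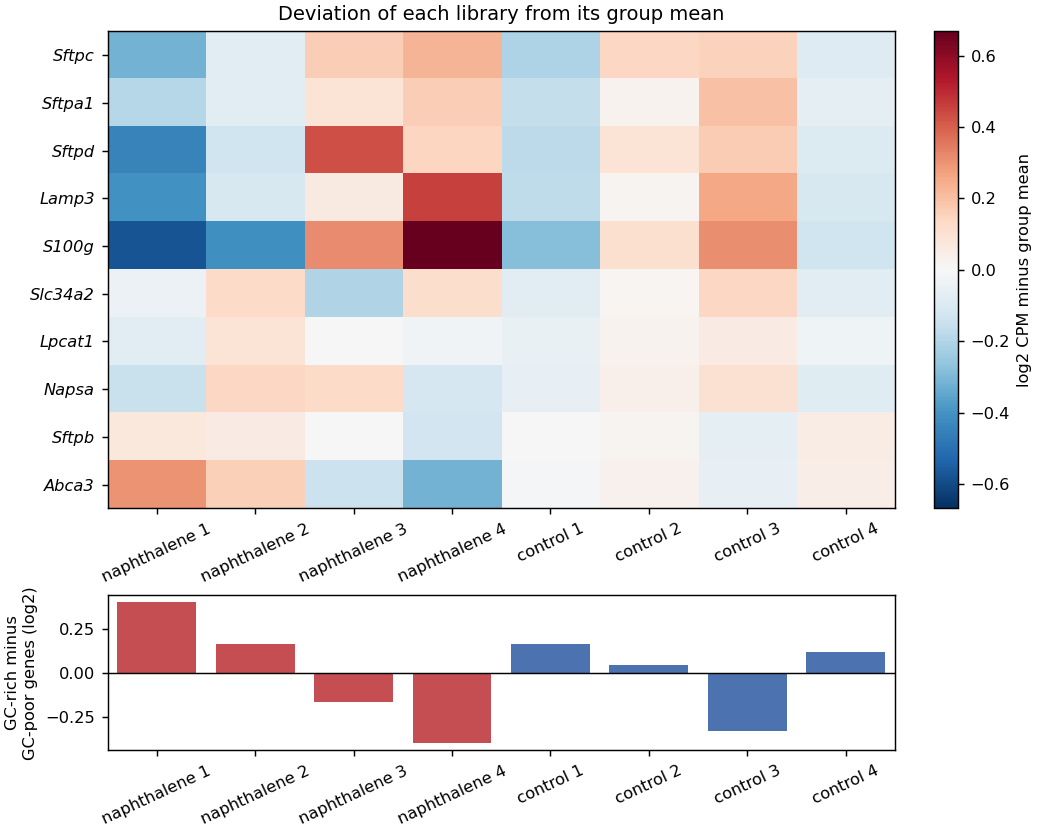
Upper panel: log2 CPM of each member minus its group mean in each library (red above, blue below). Lower panel: mean log2 deviation of GC-rich minus GC-poor genes in the same libraries, from 0.40 in naphthalene 1 to -0.40 in naphthalene 4, with the upper 5 rows of genes lowest in naphthalene 1 and the bottom rows, Sftpb and Abca3, highest there.

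Over all 8 libraries, the genes whose log2 CPM was most like that of Sftpc were Glipr1, Nsa2, Extl2, Ints8 and Frk, with r from 0.95 to 0.97 among 10200 genes with a mean of at least 10 CPM. S100g came 17th in that order (r = 0.93), whereas Abca3 had r = -0.75 with Sftpc. These values are not corrected for length and GC content, and the within-group r of Sftpc with Abca3 was -0.80 without that correction and 0.01 with it.

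Genes that act with surfactant were also read from lists. Beside the counts in these lists and in those of the markers below, 14.1% of all tested genes were called higher and 14.6% lower. Of 25 tested genes of surfactant lipid synthesis 5 rose and 4 fell, with a median log2 fold change of 0.05. Elovl1, a fatty acid elongase, was at 322 ± 13.7 and 212 ± 18.1 CPM in naphthalene and control lungs (SD, n = 4 each), and its log2 fold change was 0.61 (SE 0.07, edgeR adjusted p = 0.000707). Lpin2, a phosphatidate phosphatase, and Pgs1, which acts in phosphatidylglycerol synthesis, were higher by 0.69 and 0.53 in log2 terms. Acss2, which makes acetyl-CoA from acetate, fell by 0.86 on the log2 scale, to a mean of 22.1 CPM in naphthalene lungs (lowest 21.7, highest 23.0), against 40.0 ± 4.10 CPM in control lungs (SD, n = 4). Of 18 tested genes of lamellar body traffic and protein processing 2 rose and 0 fell at an adjusted p of 0.05, with a median of 0.02. They were Ctsh, a cathepsin that acts with napsin A on the SP-B precursor (594 ± 248 and 214 ± 28.5 CPM in naphthalene and control lungs, edgeR adjusted p = 0.00158), and Lrrk2, a kinase that is abundant in type 2 cells (769 ± 112 and 526 ± 52.5 CPM).

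Of 11 tested genes of surfactant uptake and turnover 1 rose and 3 fell. The lipid exporters Abcg1 and Abca1 fell by 0.84 and 0.51 on the log2 scale and Bach2, a repressor needed for surfactant clearance by alveolar macrophages, by 1.01, whereas the lipoprotein lipase gene Lpl rose by 0.73. With the length and GC correction the Abca1 log2 fold change was -0.27 (edgeR adjusted p = 0.0392), and with a replicate block added it was -0.26 and did not pass (adjusted p = 0.0637). Of 16 tested transcription factors of type 2 cells 2 rose and 2 fell. Cebpd, an early C/EBP factor, was at 127 ± 13.8 and 43.0 ± 16.4 CPM in naphthalene and control lungs (edgeR adjusted p = 0.000481, a difference of 1.57 on the log2 scale with SE 0.27), and Stat3 rose by 0.51. Foxa1 and Elf5 fell by 0.53 and 0.89 on the log2 scale. Nkx2-1 itself, named here because its motif was searched and not by the rule for named genes, was at 79.1 ± 4.24 and 86.2 ± 5.43 CPM (edgeR adjusted p = 0.305). Of 17 tested other type 2 genes 5 rose and 4 fell, with a median of -0.14. Ctsh, Il33 and Mlc1 were higher by 1.47, 0.85 and 0.67 in log2 terms, and the complement gene Hc fell to 470.4 ± 117 CPM in naphthalene lungs, against 1058 ± 189 CPM in control lungs. The number of these that rose was 3 without naphthalene 2, control 1, control 2 or control 4, and the number that fell was 7 without naphthalene 4.

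Markers of other cells were read in the same libraries. Of 10 tested club cell genes 9 fell, with a summed level of 2449 to 5007 CPM in naphthalene libraries and 7383 to 13869 CPM in controls, where Cyp2f2 was at 207 ± 71.1 CPM against 1274 ± 394 CPM. Sftpb and Sftpd, which club cells also make, were higher in the same naphthalene libraries, and the part of club cells in their levels was not tested. Of 9 tested ciliated cell genes 8 fell. Of 9 tested alveolar type 1 genes 3 rose, Pdpn, Aqp5 and Hopx, by 0.61, 0.43 and 0.46 on the log2 scale, with a median of 0.29. Hopx lost its call without control 2 (adjusted p = 0.0534) or control 4 (0.0539), and Aqp5 with the length and GC correction (0.0622). The type 1 genes past the test numbered 5 without control 3 and 6 when naphthalene 1 was dropped as well. Of 12 tested genes listed as transitional alveolar markers 10 rose, with a median of 1.48. The list's summed level was 1691 to 3031 CPM in naphthalene libraries and 868 to 967 CPM in controls. Krt8 and Krt18 of this list are also in the list of general epithelial genes. Which cells of the lobe, alveolar or airway, made these transcripts was not tested. Of 6 tested neutrophil genes 1 rose, and the summed level of the list was 220.0 to 501 CPM in naphthalene libraries, and 71.5 to 101 CPM in controls other than control 3, which was at 404 CPM. That neutrophil gene, Retnlg, lost its call without naphthalene 2 or 3 or control 1, 2 or 4 (adjusted p 0.0522 to 0.0703), whereas 6 neutrophil genes passed without control 3 and 2 without naphthalene 1. Among 10 tested genes of alveolar macrophages 2 fell, Itgax and Fabp1, and Fabp1 lost its call without control 2 (adjusted p = 0.0553). None of that list rose, but 2 of its genes did without naphthalene 1.

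**Figure D5:**
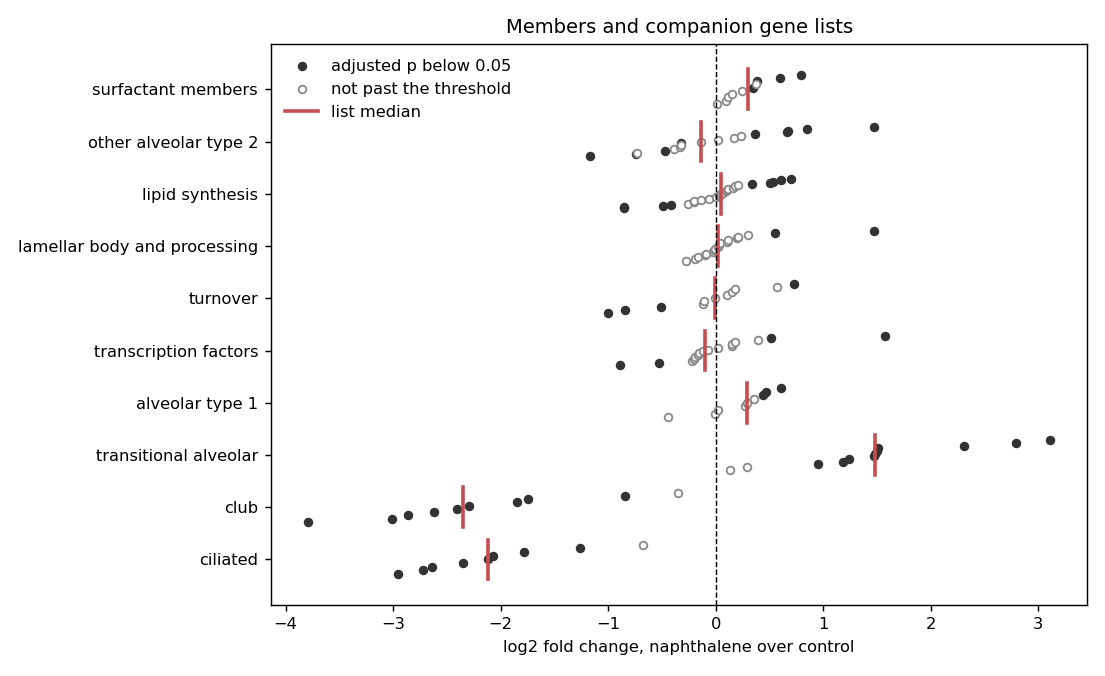
Log2 fold change, naphthalene over control, of the tested genes in each list (filled where the edgeR adjusted p was below 0.05), with a red line at the list's median. The members lie between 0.01 and 0.79, the club and ciliated lists have medians of -2.35 and -2.11, and the transitional alveolar list has a median of 1.48.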

How the data were processed

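The deposited values were whole-number read counts for each gene symbol, with no scaling by the authors. Per the submitters' processing notes, the tools were Trim Galore 0.6.7, HISAT2 2.2.1, edgeR 4.2.1 and featureCounts 2.0.6, with mm39 as the build; no role or order is given for them. No source used here states the annotation, the strand setting or how multi-mapping reads were handled. RNA was made into stranded libraries, per the labels' protocols.

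Columns were matched to mice by library name. The test was edgeR's quasi-likelihood test (edgeR 4.0.16 in R 4.3.3) with TMM scaling, filterByExpr at a minimum count of 10 and a minimum total of 15, and group as the only term. Benjamini-Hochberg adjustment was over all 14192 tested genes. The SE given is for the difference between group means of log2 CPM (prior count 2), and the 95% intervals are from voom in limma 3.58.1. DESeq2 1.42.0, other scalings and filters, a replicate block and leaving out libraries were alternatives. Named genes are the 10 members, the genes of each list that passed, up to 4 and taken by lowest p, and the 5 genes most like Sftpc. The members and lists were chosen with earlier results of these data known. A transcript length and GC content from GENCODE M21 was found for 94.9% of tested genes. Libraries of the same group differed beyond sampling noise in all 12 pairs (chi-square over degrees of freedom 5.57 to 48.5), so none was a copy of another. This cannot tell separate mice from repeat libraries of 1 mouse. Each library was taken as 1 mouse, as described above. The labels give no batch. The p values set the group difference against the spread between libraries of a group. With 1 library per mouse, variation between mice and between libraries is not separated. A floor of 3 counts was 0.179 to 0.275 CPM in naphthalene libraries and 0.215 to 0.269 CPM in controls, for counting error only. The list of general epithelial genes is not reported here.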

Additional observations from a re-analysis of the deposited data

Results flagged for a closer look

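Of 122 groups of 4 libraries checked for a single value far from the other 3, 8 were flagged, where chance flags about 1 in 20. Among the members, the ratio of Sftpd to Sftpc counts was 0.198 in naphthalene 3, against 0.151 to 0.158 in the other naphthalene libraries. The ratio of Sftpa1 to Sftpc was 0.490 in control 2, against 0.542 to 0.549 in the other controls. Among listed genes, naphthalene 4 stood apart from the other naphthalene libraries for Stat3 (234 CPM, against 295 to 303 CPM), Pdpn (235.9 CPM, against 174 to 183.5 CPM) and Acss2 (22.98 CPM, against 21.7 to 21.9 CPM). Control 4 stood apart from the other controls for the ciliated cell genes Dnah5 (369.5 CPM, against 234 to 252 CPM) and Cdhr3 (87.66 CPM, against 57.9 to 61.75 CPM). Control 3 stood apart for the neutrophil gene Retnlg (12.21 CPM, against 3.94 to 4.50 CPM).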

How the results depend on the processing

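Of 200 values of the 10 members over 20 alternatives, 172 kept their direction and their side of the threshold, no member was called lower under any of them, and Sftpd and Napsa passed under all 20. With 1 library left out, the members past the test numbered 2 to 5, and log2 fold changes were -0.067 to 0.11 for Sftpc, 0.32 to 0.39 for Sftpb, 0.046 to 0.25 for Abca3, 0.20 to 0.50 for Lamp3, 0.34 to 0.45 for Slc34a2 and -0.16 to 0.27 for S100g. Over the same settings 3 to 5 of the other type 2 genes rose and 3 to 7 fell. Of all tested genes, 1397 to 2465 rose and 1513 to 2593 fell in these settings. Sftpc, with a value near 0, changed sign with upper quartile scaling (-0.017), no filter (-0.0031), and the length and GC correction without and with the replicate block (-0.074 and -0.075). S100g changed sign under those corrections (-0.059 and -0.063). They brought Abca3 (0.26 and 0.26) and Lamp3 (0.36 and 0.36) past the threshold, with 3331 and 3277 genes higher in all, against 2005. With the block, 4 lamellar body and processing genes and 2 turnover genes rose under that correction. For Sftpa1 and Lamp3, control 3 was the highest control and naphthalene 1 the lowest naphthalene library. Dropping both therefore had to widen their differences. Without control 3 and naphthalene 1, Sftpa1 (0.37) and Lamp3 (0.59) passed and Sftpb (0.30) did not. Fabp1 also lost its call there (adjusted p = 0.0645), and Abca1 lost its call with the correction and block (adjusted p = 0.0637). Of the type 1 genes 5 passed in DESeq2 and 5 in limma voom, and of the neutrophil genes 3 passed in limma voom and 4 with the block. The cause of these changes was not tested. The deviations of same-numbered libraries had r of 0.29, 0.03, 0.18 and -0.09, and 2 of 4 libraries correlated best with their own number. So few values cannot decide whether replicate numbers pair the mice. With the replicate block alone, Slc34a2 (0.38) had an adjusted p of 0.0602, 3 members passed, and no other member's call changed. Depth did not limit the members, all with over 400 counts per library.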

Other observations

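Of 1150 protein-coding genes that RefSeq places on chromosome 1, 1138 (99.0%) had 0 counts in all 8 libraries, and the highest sum over the libraries for any of the others was 51. On the other autosomes 0.399% to 11.5% of protein-coding genes were at 0 in all libraries. In the lists used here, 8 of 8 genes on chromosome 1 were at 0, namely Chil1, Elf3, Tfcp2l1, Igfbp2, Cfap126, Marco, Cxcr2 and Il1r2. They include epithelial, macrophage and neutrophil markers, so the zeros are not read as absence of expression, and these genes count as not tested in every list above. The library totals above contain almost no reads of that chromosome. The cause was not tested.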
